A study of Mus musculus with 16 samples.

Results

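The contrast described here asks whether the change between Camkk2 null and WT cells was the same in 2 fractions of mouse bone marrow. It is the difference null minus WT in KSL less the difference null minus WT in KL, taken for every probe set that names 1 gene, and it used all 16 of the 16 arrays. KSL are Lin-Kit+Sca1+ cells, the fraction that holds hematopoietic stem cells and multipotent progenitors, and KL are Lin-Kit+Sca1- cells, which are mostly committed myeloid and erythroid progenitors. Marrow came from WT and Camkk2 null mice, 16 mice per genotype, and each genotype gave 4 biological replicates of each fraction. The 4 groups are therefore KSL labelled WT, KSL labelled null, KL labelled WT and KL labelled null, with 4 arrays each. The cells were sorted straight into lysis buffer with no treatment, and age and sex are not given in the sources used here. How the mice were divided among the replicates is not given either. Of 72688 features on the array, 30638 probe sets of 30176 genes named 1 gene and were tested.

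CaMKK2 is a kinase that calcium and calmodulin switch on, and its targets include CaMKI, CaMKIV and the energy sensor AMPK. In marrow, Kit is the receptor for stem cell factor and Sca1 is a surface protein used to separate stem cells from committed progenitors. As cells leave the stem cell state they lose transcription factors such as Meis1 and Hlf. They then take up erythroid, megakaryocytic, granulocytic or lymphoid programs, and GATA factors act in the erythroid, megakaryocyte and mast cell branches.

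The labels were checked before the contrast was read. Camkk2 itself overlapped between WT and null in both fractions, and its change was -0.13 on the log2 scale in KSL and -0.05 in KL (SE 0.27 each). The difference between these changes was -0.09 (95% interval -0.89 to 0.72, adjusted p = 0.976 from limma). In all 4 groups its lowest readings were those of replicates 3 and 4. With that pairing as a term in the fit, a choice made after the values were seen, the interval was -0.38 to 0.2. Which part of the gene is deleted is not given in the sources used here, so the probe set may not read it, and every direction below rests on the labels. Ly6a, which encodes Sca1, is not analysed here. KSL and KL labelled WT differed in 26 probe sets (0.0849% of those tested), and KSL and KL labelled null in 79 (0.258%). By label, WT and null differed in 1529 probe sets within KSL and in 1219 within KL. The mean of 33 stem cell genes was taken relative to its average over all arrays. It was 0.23 to 0.4 in KSL labelled WT and 0.38 to 0.46 in KL labelled WT, so it was not higher in KSL. Under the null label it was -0.47 to -0.45 in KSL and -0.3 to -0.23 in KL. This list thus separated by label, and under neither label was it higher in KSL. What the label axis stands for was not tested. With Camkk2 not following its label and the fractions this alike, correctly labelled arrays and arrays exchanged between groups cannot be told apart here. The contrast has the same value if it is read as KSL minus KL under the null label less KSL minus KL under the WT label.

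Most probe sets called in one fraction had the same sign in the other. In KSL, 398 probe sets were higher (1.3%) and 1131 lower (3.69%) on the arrays labelled null, with a call set at a 1.5-fold change or more and an adjusted p below 0.05. In KL, 387 were higher (1.26%) and 832 lower (2.72%). Both fractions shared 265 of the higher calls (0.865%) and 709 of the lower calls (2.31%), together 63.7% of the calls in KSL and 79.9% of those in KL. No probe set was called in opposite directions. Of the 974 called in both, the effect was larger in KSL for 658 and in KL for 316. Of the 555 called in KSL alone, 544 had the same sign in KL and 183 an unadjusted p of the difference under 0.05. Of the 245 called in KL alone, 237 had the same sign in KSL and 72 such a p. Across the probe sets the 2 effects correlated with a Pearson r of 0.883 and a Spearman coefficient of 0.695, where genes are not independent replicates. Arrays labelled WT and null did not overlap for 8188 probe sets in KSL (26.7%) and 6370 in KL (20.8%). They were apart in both fractions and in the same direction for 3962 (12.9%), and apart in opposite directions for 7 (0.0228%).

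No difference between the effects passed the test. The limma fit called 0 of 30638 probe sets (0%), with or without the fold minimum, and the smallest adjusted p was 0.125. At an unadjusted p under 0.05 there were 1888, of which 1013 were higher in KSL (3.31%) and 875 lower (2.86%). The paper's general statistics name a t-test, and its microarray section names no test. A plain t-test over the same arrays, termed the methods' t-test below, also called 0, with 1899 at an unadjusted p under 0.05. These counts do not show that the effects were equal. The 95% interval of the difference lay within a fold of 1.5 either way for 28359 probe sets (92.6%) and within a fold of 2 for 30271 (98.8%), and the median distance from its centre to either end was 0.211 on the log2 scale. Differences of at least a doubling were measured for 30 probe sets. Calls appeared under 2 settings. After a further quantile normalization of the arrays, Btnl10 and Nfkbia passed (adjusted p = 0.018 each), and 7 probe sets, Tspan15 and Grina among them, had an adjusted p under 0.05 at any fold. Without KL null replicate 4, 6 probe sets passed, namely those of Hdc, Ifngr1, Tmem176b and 3 copies of 5S ribosomal RNA. At any fold there were 8, with Alox5 at the smallest adjusted p of 0.00679.

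**Figure D1:**
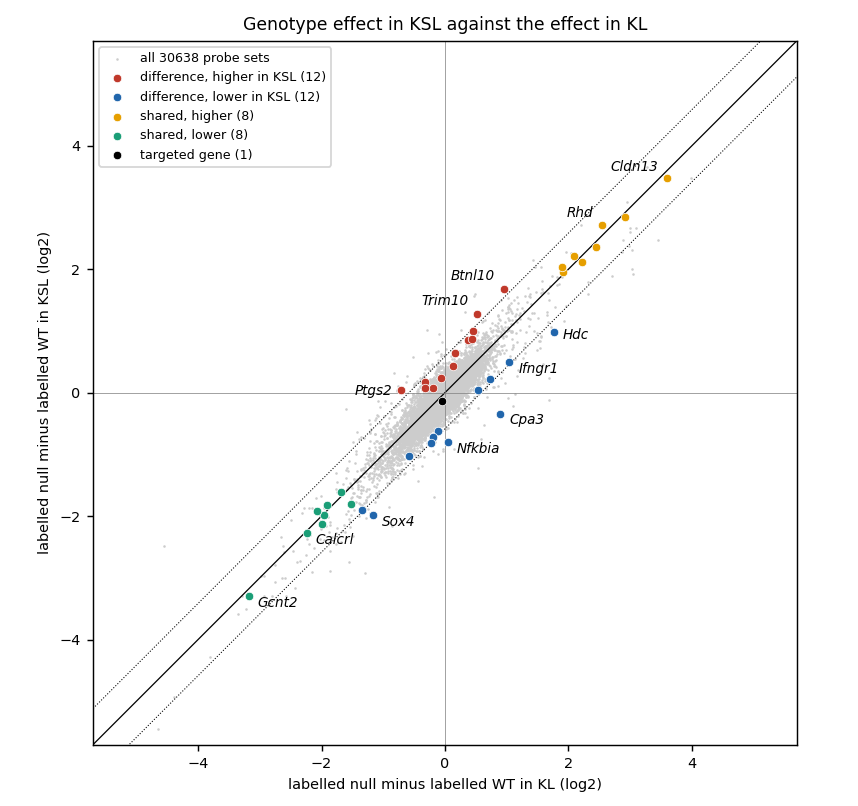
Each grey point is 1 of 30638 probe sets, with the label effect in KL on the horizontal axis and that in KSL on the vertical axis, both as log2 null minus WT. The solid line marks equal effects and the dotted lines a 1.5-fold difference between them. The shared genes lie along the line at both ends. The 24 leading differences were chosen by p, and some lie between the dotted lines, such as Gmeb1 with a difference of 0.27.

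The increases shared by both fractions included Cldn13, Rhd, Kel and Cpox. A gene was counted as shared where both fractions were called in the same direction and the 95% interval of the difference lay within a fold of 1.5. This held for 165 probe sets that were higher (0.539%) and 437 that were lower (1.43%), 602 of the 974 called in both. For the other 372 the interval reached outside that fold, because it was wide or because it was centred away from 0. The 8 genes named in each direction have the largest value of their smaller effect, so their effects are a description of the choice. Cldn13, a claudin expressed in mouse erythroid cells, read 7.0, 7.0, 6.87 and 6.56 on the WT arrays of KSL and 10.03, 10.43, 10.34 and 10.54 on its null arrays. In KL it read 5.85, 6.01, 6.03 and 5.93 under WT and 9.07, 9.79, 9.88 and 9.45 under null. The null arrays were above the WT arrays in both fractions, and each KSL group was above the KL group of the same label. The effects were 3.48 in KSL and 3.6 in KL (SE 0.15 each), with a difference of -0.12 (95% interval -0.58 to 0.34). Rhd, the Rh blood group protein, rose by 2.72 in KSL and 2.55 in KL (SE 0.14 each). Cpox, which makes a precursor of heme, rose by 2.04 and 1.90 (SE 0.11 each), and Kel, the Kell blood group protein, by 2.21 and 2.09 (SE 0.13 each). Slc38a5, an amino acid transporter, rose by 2.85 and 2.91. Atp1b2, a subunit of the sodium pump, Mt1, a metal-binding metallothionein, and C1qtnf12, a secreted C1q-related protein, rose by 1.91 to 2.45. For the 8 genes the adjusted p from limma was at most 2.82e-07 in either fraction, and the intervals of the difference ran from -0.58 to 0.57 over all of them. In bulk samples like these, fewer cells of a type and less RNA per cell cannot be told apart.

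The shared decreases had a more mixed membership. Gcnt2, which branches the blood group I sugar chain, read between 9.65 and 10.49 on the 4 WT arrays of KSL and 6.86, 6.71, 6.45 and 6.84 on its null arrays. In KL it read 10.53, 10.46, 10.35 and 10.21 under WT and 7.36, 7.22, 7.08 and 7.15 under null. All null arrays lay below all WT arrays. Its effects were -3.29 in KSL and -3.18 in KL (SE 0.14 each), a difference of -0.11 (95% interval -0.53 to 0.31). Calcrl, the receptor component for calcitonin gene-related peptide and adrenomedullin, fell, with effects of -2.28 and -2.24, and here the interval of the difference was narrow, -0.29 to 0.22. Lax1, a membrane adaptor of lymphocytes, fell, with effects of -1.99 and -1.96 (interval -0.31 to 0.24). Rnf122, a RING finger protein, Pglyrp2, which cleaves bacterial peptidoglycan, Hacd4, of long-chain fatty acid synthesis, Rtp4, an interferon-induced chaperone, and Neurl3, a ubiquitin ligase, fell, with effects between -2.12 and -1.53. Of these 8, Neurl3 had the interval farthest from 0, -0.53 to -0.01, with effects of -1.80 in KSL and -1.53 in KL.

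**Figure D2:**
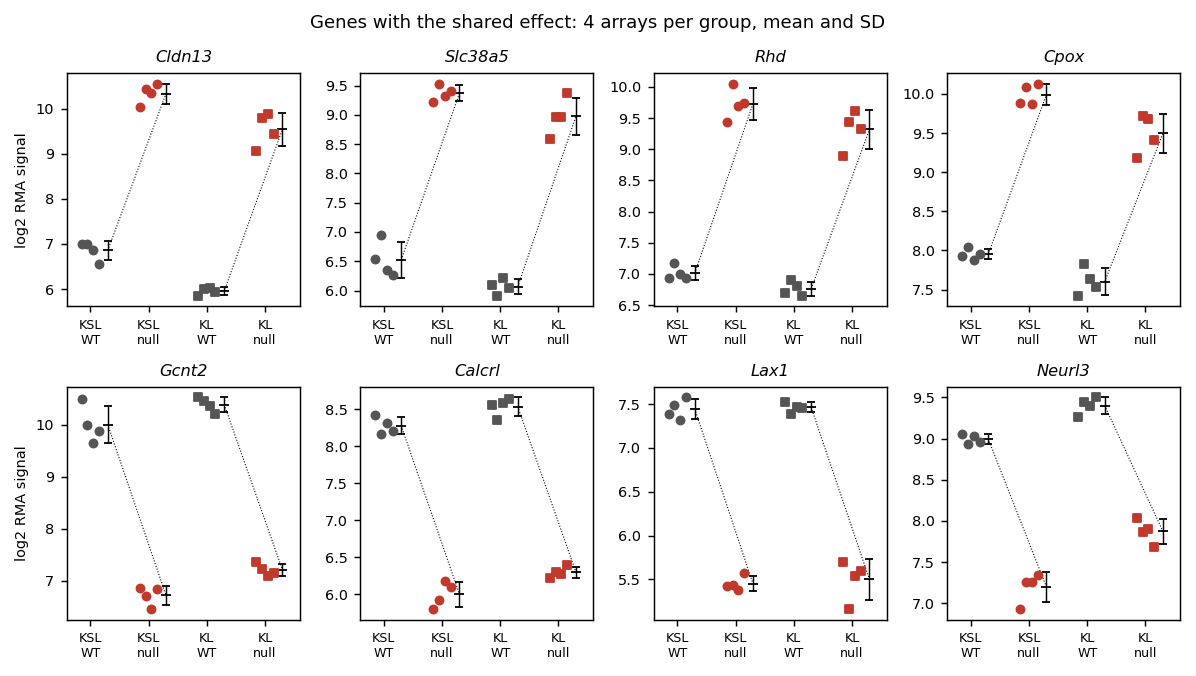
Log2 RMA signal of 8 shared genes on each array, circles for KSL and squares for KL, grey for arrays labelled WT and red for null, with the mean and SD of 4 arrays beside the points. The dotted lines joining WT to null run nearly parallel in KSL and KL, as for Cldn13 with effects of 3.48 and 3.6.

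Promoters of 5 named genes are shown because they bear on whether genes of both kinds of result carry the same letters upstream. Each is the 250 bases before the annotated start from RefSeq (GRCm38.p6), in the direction of transcription, and capitals mark AGATAA or its reverse complement TTATCT, a form of the GATA motif. Rhd and Kel belong to the shared increases, Btnl10 and Trim10 to the genes with a larger value in KSL, and Cpa3 to those with the opposite difference.
Rhd: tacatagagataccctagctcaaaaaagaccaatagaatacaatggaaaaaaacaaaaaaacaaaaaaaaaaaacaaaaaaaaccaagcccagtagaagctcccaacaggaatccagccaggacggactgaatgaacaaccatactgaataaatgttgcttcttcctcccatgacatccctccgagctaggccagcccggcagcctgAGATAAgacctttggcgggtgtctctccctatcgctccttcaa
Kel: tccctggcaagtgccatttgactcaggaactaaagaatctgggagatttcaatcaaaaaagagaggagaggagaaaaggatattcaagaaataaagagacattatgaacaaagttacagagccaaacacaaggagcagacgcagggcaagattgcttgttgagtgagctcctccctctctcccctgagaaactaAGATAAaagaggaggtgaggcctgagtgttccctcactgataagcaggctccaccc
Btnl10: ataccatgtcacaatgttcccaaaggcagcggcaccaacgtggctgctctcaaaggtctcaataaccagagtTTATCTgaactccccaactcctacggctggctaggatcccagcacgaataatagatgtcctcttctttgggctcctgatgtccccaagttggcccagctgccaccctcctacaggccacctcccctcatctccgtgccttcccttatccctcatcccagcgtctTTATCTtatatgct
Trim10: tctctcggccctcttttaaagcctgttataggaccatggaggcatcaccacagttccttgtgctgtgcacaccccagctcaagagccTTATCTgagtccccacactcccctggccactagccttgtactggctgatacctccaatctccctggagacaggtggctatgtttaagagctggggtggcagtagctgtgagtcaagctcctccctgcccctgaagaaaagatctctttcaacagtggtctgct
Cpa3: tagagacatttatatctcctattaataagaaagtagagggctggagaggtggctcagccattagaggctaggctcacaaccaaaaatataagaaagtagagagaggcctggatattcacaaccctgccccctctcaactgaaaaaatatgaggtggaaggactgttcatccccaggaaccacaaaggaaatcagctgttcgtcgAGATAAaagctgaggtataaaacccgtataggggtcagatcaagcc
These are chr4:134864286-134864535 on the plus strand, chr6:41704326-41704575 on the minus strand, chr11:58917658-58917907 on the plus strand, chr17:36869324-36869573 on the plus strand and chr3:20242182-20242431 on the minus strand. Btnl10 has another annotated start downstream, whose window overlaps this one. The motif begins 43 bases before the start in Rhd, 56 in Kel, 46 in Cpa3, 163 in Trim10, and 178 and 14 in Btnl10. On either strand it was found in at least 1 window of 3090 of the 27025 genes in the table (11.4%). It was found in 2 of 8 genes with a promoter among the 12 named as higher in KSL, 2 of 12 among those named as lower, 2 of 5 among the shared increases and 3 of 6 among the shared decreases. The 5 were picked because they hold it, and a match is a description of the letters only.

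Among the 24 genes with the smallest p for the difference, 12 in each direction, those with a larger value in KSL included Btnl10, Trim10 and Hba-ps4. None of the 24 was called as a difference, so the values below only describe the genes ranked first by p. Larger differences were measured for other genes. Btnl10, a butyrophilin-like membrane protein, read 5.34, 5.54, 5.54 and 5.34 on the WT arrays of KSL and 7.02, 7.32, 6.94 and 7.20 on its null arrays. In KL it read 5.27, 5.43, 5.23 and 5.31 under WT and 6.30, 6.22, 6.34 and 6.21 under null. The WT arrays of both fractions overlapped, whereas every KSL null array lay above every KL null array. Btnl10 rose by 1.68 in KSL (SE 0.078, adjusted p = 8.87e-10 from limma) and by 0.96 in KL (adjusted p = 3.87e-07). The difference was 0.72 (95% interval 0.49 to 0.96, adjusted p = 0.125). Trim10, a RING finger protein of erythroid maturation, read 5.14, 5.57, 5.39 and 5.29 in KSL labelled WT, 6.53, 6.80, 6.54 and 6.61 in KSL labelled null, 5.43, 5.57, 5.19 and 5.33 in KL labelled WT and 5.73, 5.97, 6.01 and 5.89 in KL labelled null. It had the same order of groups. Its effects were 1.27 and 0.52, with a difference of 0.75 (95% interval 0.46 to 1.04, adjusted p = 0.127), and only the effect in KSL passed the fold minimum. Hba-ps4, an alpha-globin pseudogene whose probes may also read the near-identical globin genes, had effects of 0.86 and 0.38 and a difference of 0.49 (95% interval 0.27 to 0.7, adjusted p = 0.227).

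The wider erythroid lists leaned the same way without a call. Of 15 erythroid regulators, 12 had a difference above 0, against 16458 of all 30638 probe sets. That share also covers probe sets with no effect. Of the 974 probe sets called in both fractions, higher or lower, 658 had the larger effect in KSL. A lean above 0 among rising genes is therefore not particular to erythroid genes. Of the same 15, 7 were higher and 1 lower under the null label in KSL, and 5 higher and none lower in KL. The medians of the effect were 0.50 in KSL and 0.36 in KL, beside 0.05 and 0.03 over all probe sets, and 4 members had an unadjusted p under 0.05, all higher in KSL. Shares over all probe sets serve as the background for the counts of each list. Calls were 1.3% higher and 3.69% lower in KSL, and 1.26% and 2.72% in KL. Differences at an unadjusted p under 0.05 were 3.31% higher in KSL and 2.86% lower. The list members named here and below beyond the 24 were chosen after their values were seen. Epor, the erythropoietin receptor, read 7.42, 7.36, 7.79 and 7.32 on the WT arrays of KSL and 9.50, 9.61, 9.29 and 9.64 on its null arrays, and 7.33, 7.35, 7.55 and 7.55 in KL labelled WT and 8.71, 9.01, 9.2 and 9.10 in KL labelled null. The KSL null arrays were above the KL null arrays. Its effects were 2.04 and 1.56, with a difference of 0.48 (95% interval 0.13 to 0.83, adjusted p = 0.649 from limma). Gata1, a master regulator of erythroid genes, had effects of 0.90 and 0.68. Gfi1b, a repressor needed for erythroid and megakaryocytic cells, had 1.39 and 1.01, and Klf1, an activator of globin genes, had 2.29 and 1.95. Tal1, a partner of GATA factors, had 0.43 and 0.17.

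Globin, membrane and heme genes of the red cell mostly had differences above 0, though not all did. This held for 15 of 19 globin and membrane genes and 14 of 18 heme and iron genes, and none was called. As above, effects larger in KSL were the more frequent case among all probe sets called in both fractions. Of 19 measured globin and red cell membrane genes, 13 were higher in KSL and 12 in KL under the null label, with medians of 0.93 and 0.66, and none was lower. The median difference per gene was 0.05. The differences ran from -0.72 to 0.59, with 5 at an unadjusted p under 0.05 higher in KSL and 1 lower. The 2 ends of that range were both carbonic anhydrases, enzymes that interconvert carbon dioxide and bicarbonate. Car2 rose by 1.28 in KSL and 0.70 in KL, a difference of 0.59 (95% interval 0.25 to 0.93, adjusted p = 0.49). Car1 rose by 2.3 and 3.02, a difference of -0.72 (95% interval -1.39 to -0.04, adjusted p = 0.789). For Car1, KL labelled WT read 9.0, 9.75, 10.43 and 10.44, a wider spread than the 10.55 to 10.71 of KSL labelled WT. Ank1, which anchors the membrane skeleton, rose by 1.36 and 1.05. Of 18 heme and iron genes, 12 were higher in KSL and 10 in KL, and the median difference was 0.11. Fech, which inserts iron into heme, rose by 1.36 and 1.02, and Uros, an earlier enzyme of the pathway, had effects of 0.66 and 0.40.

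Genes of mast cells, basophils and eosinophils had the lowest list median of the difference among the 22 lists examined, -0.42 over 19 measured genes. In KSL 1 of them was higher and 3 lower under the null label, and in KL 7 were higher and 1 lower. Of the 19, 16 had a difference below 0 and 6 an unadjusted p under 0.05, all lower in KSL. Cpa3, the mast cell carboxypeptidase, read 9.30, 8.96, 9.29 and 9.26 on the WT arrays of KSL and 8.44, 8.83, 9.07 and 9.10 on its null arrays. In KL it read 9.05, 9.2, 9.24 and 9.57 under WT and 10.46, 10.08, 10.15 and 9.92 under null. The labels overlapped in KSL, and in KL every null array was above every WT array. Cpa3 rose by 0.89 in KL (SE 0.15, adjusted p = 4.35e-04 from limma), while its value in KSL was -0.34 (adjusted p = 0.1). The difference was -1.23 (95% interval -1.67 to -0.78, adjusted p = 0.127), the farthest from 0 among the 24. Hdc, which makes histamine, read 6.68, 6.41, 6.46 and 6.59 in KSL labelled WT, 7.37, 7.60, 7.55 and 7.54 in KSL labelled null, 6.19, 6.37, 6.31 and 6.42 in KL labelled WT and 8.38, 8.26, 7.92 and 7.78 in KL labelled null. It rose in both fractions, by 0.98 and 1.76, and the difference was -0.78 (95% interval -1.11 to -0.46, adjusted p = 0.165). Without KL null replicate 4 its difference was -0.88 with an adjusted p of 0.048.

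Granule proteins of these cells spread more between arrays. Prg2, the major basic protein of eosinophils, read 9.19, 9.43, 9.77 and 9.57 in KSL labelled WT, 7.63, 9.2, 10.24 and 10.39 in KSL labelled null, 8.12, 8.89, 8.23 and 9.97 in KL labelled WT and 11.37, 10.62, 10.01 and 9.92 in KL labelled null. The difference of -1.80 had a 95% interval of -3.37 to -0.23 and an adjusted p of 0.76, and the labels overlapped in both fractions. Mcpt8, a protease of basophils, had values of -0.85 in KSL and 0.53 in KL. Prss34, a related protease, fell by 1.69 in KSL and had -0.17 in KL. Ms4a2, the beta chain of the IgE receptor, had 0.33 in KSL and rose by 0.93 in KL. The mean of the list, relative to its average over the arrays, was -0.42 to 0.18 in KSL labelled null and 0.13 to 0.46 in KL labelled null. The part of such cells in these differences was not tested.

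**Figure D3:**
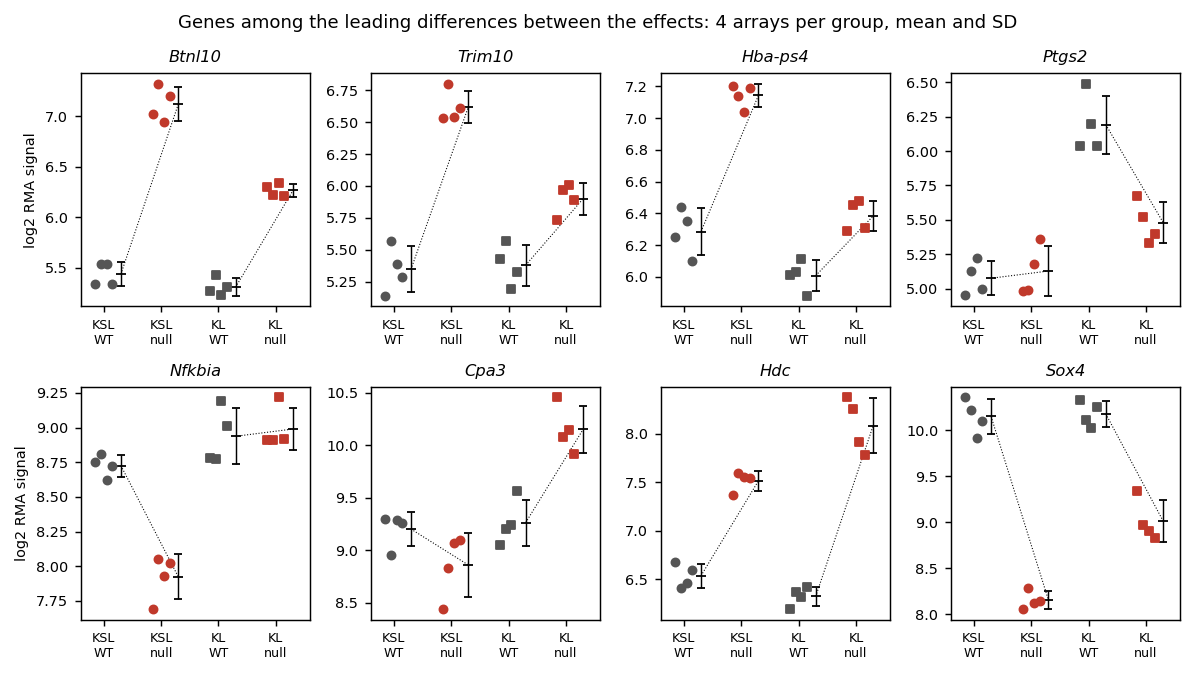
Log2 RMA signal of 8 of the 24 leading genes on each array, circles for KSL and squares for KL, grey for WT and red for null labels, with the mean and SD of 4 arrays. The lines are steeper in KSL for Btnl10 (1.68 against 0.96) and Trim10 (1.27 against 0.52), steeper in KL for Hdc (0.98 against 1.76), and point in different directions for Cpa3 (-0.34 against 0.89).

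Among neutrophil granule genes, several rose under the null label in both fractions and had larger effects in KL. Of 33 measured genes of neutrophil granules and granulocyte-monocyte progenitors, 13 were higher and 4 lower in KSL, and 12 higher and 4 lower in KL. The median of the difference was -0.19, with 10 members at an unadjusted p under 0.05 lower in KSL and 1 higher. Ms4a3, a membrane protein of granulocyte-monocyte progenitors, read 10.53, 10.35, 10.71 and 10.27 in KSL labelled WT, 12.33, 12.60, 12.57 and 12.40 in KSL labelled null, 9.09, 10.04, 9.59 and 9.51 in KL labelled WT and 12.87, 12.79, 12.44 and 12.28 in KL labelled null. The null arrays of the fractions overlapped, and the KL arrays labelled WT were all below the KSL arrays labelled WT. Its effects were 2.01 and 3.04, with a difference of -1.03 (95% interval -1.53 to -0.52, adjusted p = 0.331 from limma). Elane, the neutrophil elastase, had effects of 1.88 and 2.71, and Ly6c2, a surface protein of myeloid cells, 1.92 and 3.04. Hp, haptoglobin, had 1.59 and 2.32. S100a9, a calcium-binding protein of neutrophils, went the other way. It rose by 1.60 in KSL, where it read 7.65, 9.02, 8.49 and 7.83 under null against 6.32 to 7.28 under WT, and had a value of 0.48 in KL (difference 1.11, 95% interval 0.15 to 2.08, adjusted p = 0.755).

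Immediate-early genes, which cells switch on quickly after many stimuli, were listed together with heat shock genes, and several fell by more in KL. Of 32 measured genes of this list, 12 were lower and 1 higher in KSL, and 14 lower and 1 higher in KL. The medians were -0.14 and -0.53, and 9 members had a difference with an unadjusted p under 0.05 above 0 and 1 below. The 26 probe sets called between KSL and KL labelled WT included those of Fos, Fosb, Nr4a1, Btg2, Ptgs2, Gem and Zfp36, each lower in KSL. The list mean, relative to its average, was 0.31 to 0.8 in KL labelled WT, -0.27 to 0.02 in KSL labelled WT, -0.05 to 0.04 in KL labelled null and -0.52 to -0.39 in KSL labelled null. Ptgs2, the inducible prostaglandin synthase, read 4.95, 5.13, 5.22 and 5.0 in KSL labelled WT, 4.98, 4.99, 5.18 and 5.36 in KSL labelled null, 6.04, 6.49, 6.2 and 6.04 in KL labelled WT and 5.67, 5.52, 5.33 and 5.40 in KL labelled null. The 2 KSL groups overlapped, and the KL groups did not. It fell by 0.71 in KL (SE 0.11, adjusted p = 2.17e-04 from limma) and had 0.05 in KSL, a difference of 0.76 (95% interval 0.43 to 1.09, adjusted p = 0.185).

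Btg2, which restrains cell division, had -0.37 in KSL and fell by 1.08 in KL. Gem, a small GTPase, fell, with effects of -0.62 and -1.22. Nr4a1, an orphan nuclear receptor, read 8.21, 8.10, 10.16 and 9.15 in KL labelled WT and 7.05 to 7.57 in KL labelled null, against 6.90 to 7.28 and 6.85 to 6.91 in KSL, and its difference was 1.34 (95% interval 0.41 to 2.27, adjusted p = 0.634). Dusp1, a phosphatase of MAP kinases, was the 1 exception at an unadjusted p under 0.05: it fell, with effects of -1.39 in KSL and -0.76 in KL. Nfkbia, the inhibitor that holds NF-kappaB in the cytoplasm and a gene outside this list, was low in KSL labelled null alone. It read 8.75, 8.81, 8.62 and 8.72 in KSL labelled WT, 7.69, 8.05, 7.93 and 8.02 in KSL labelled null, 8.78, 8.77, 9.19 and 9.01 in KL labelled WT and 8.91, 8.91, 9.22 and 8.92 in KL labelled null. It fell by 0.80 in KSL (SE 0.1, adjusted p = 2.31e-05) and had 0.05 in KL, a difference of -0.85 (95% interval -1.16 to -0.55, adjusted p = 0.127).

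Many stem cell genes fell in both fractions, and their differences had either sign. Of 33 measured genes, 13 were lower in KSL and 14 in KL, and none was higher in either. The list median was -0.36 in each fraction, with a median difference of -0.02, and 16 of 33 differences were above 0. At an unadjusted p under 0.05, 7 were lower in KSL and 3 higher. Cd34, a surface sialomucin of progenitors, read 11.52, 11.07, 11.21 and 11.21 in KSL labelled WT, 8.92, 9.15, 9.05 and 9.16 in KSL labelled null, 11.44, 11.46, 11.33 and 11.43 in KL labelled WT and 10.15, 9.89, 9.63 and 9.81 in KL labelled null. The KSL null arrays were the lowest, and the KL null arrays lay between them and the WT arrays. It fell, with effects of -2.18 and -1.54, a difference of -0.63 (95% interval -0.94 to -0.33, adjusted p = 0.312 from limma). Adgrg1, an adhesion receptor, fell, with effects of -2.05 and -1.55. Meis1, a homeobox factor, fell, with effects of -2.52 and -2.12. Angpt1, a ligand of the Tie2 receptor, fell, with effects of -2.34 and -1.84, and Etv6, an Ets repressor, had -1.48 and -1.10. Gata2 had -0.37 and -0.11. Mecom, a zinc finger factor of stem cells, was the reverse, with -0.36 in KSL and -0.63 in KL, a difference of 0.27 (95% interval 0.02 to 0.51, adjusted p = 0.789).

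Of the 24 leading genes, Sox4, Cbfb, Dock10, Klrb1b, Tmem176a and Fut7 had a lower value in KSL than in KL, and none of these differences was called. Sox4, a factor of progenitors and lymphoid precursors, read 10.36, 10.22, 9.92 and 10.10 in KSL labelled WT, 8.06, 8.29, 8.12 and 8.15 in KSL labelled null, 10.33, 10.11, 10.02 and 10.25 in KL labelled WT and 9.34, 8.97, 8.91 and 8.83 in KL labelled null. The WT arrays overlapped between fractions and the null arrays did not. It fell, with effects of -1.99 and -1.17, a difference of -0.83 (95% interval -1.15 to -0.5, adjusted p = 0.127 from limma). Cbfb, the partner of RUNX proteins, fell by 0.72 in KSL and had -0.19 in KL. Dock10, a guanine nucleotide exchange factor, fell by 0.81 in KSL and had -0.23 in KL. Klrb1b, a C-type lectin receptor of natural killer cells, fell by 0.62 in KSL and had -0.12 in KL, at a dim signal of 4.06 to 4.3 in every group but KSL labelled WT. Tmem176a, a membrane protein, fell, with effects of -1.90 and -1.35, and Fut7, which builds selectin ligands, fell by 1.02 in KSL and had -0.58 in KL.

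Megakaryocyte, class II and adhesion genes had medians of the difference below 0. For falling genes this is the same lean to larger effects in KSL that the probe sets called in both fractions had in general. Of 21 megakaryocyte and platelet genes, 5 were lower in KSL and 4 in KL, with medians of -0.26 and -0.13, and 4 differences had an unadjusted p under 0.05, all lower in KSL. Fli1, an Ets factor of megakaryocytes, fell, with effects of -1.25 and -0.71, a difference of -0.54 (95% interval -0.82 to -0.27, adjusted p = 0.345 from limma). Rgs18, a regulator of G protein signals in platelets, fell, with effects of -1.46 and -0.90. Itga2b, the alpha chain of the platelet fibrinogen receptor, had -0.52 and -0.13. Of 11 genes of the class II antigen presentation pathway, 9 were lower in each fraction, with medians of -1.14 and -0.92, and 10 of the 11 differences were below 0. H2-DMa, which loads peptide onto class II, fell, with effects of -1.3 and -0.92 (difference -0.38, 95% interval -0.6 to -0.16, adjusted p = 0.498). H2-Ab1, a class II beta chain, fell, with effects of -1.27 and -0.92, and H2-Ob, a modulator of peptide loading, had -2.36 and -2.02. Of 39 adhesion and migration genes, 18 were lower in KSL, and 13 were lower and 1 higher in KL, with a median difference of -0.18.

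Of the other leading genes, St8sia6 and Ifngr1 were called in KL alone. Alox5, the 5-lipoxygenase of leukotriene synthesis, read 6.38, 6.28, 6.30 and 6.35 in KSL labelled WT, 6.35, 6.38, 6.41 and 6.37 in KSL labelled null, 6.10, 6.14, 6.13 and 6.21 in KL labelled WT and 6.73, 6.69, 6.78 and 6.47 in KL labelled null. The KL groups lay on either side of the KSL groups, which overlapped. Its values were 0.05 in KSL and 0.53 in KL, the latter under the fold minimum, with a difference of -0.48 (95% interval -0.65 to -0.31, adjusted p = 0.127 from limma). St8sia6, a sialyltransferase, had 0.22 in KSL and rose by 0.73 in KL. Ifngr1, the ligand-binding chain of the interferon gamma receptor, had 0.50 in KSL and rose by 1.04 in KL. Its difference of -0.54 (95% interval -0.74 to -0.35, adjusted p = 0.127) became -0.60 with an adjusted p of 0.0354 without KL null replicate 4. In the other direction, Tspan15, a tetraspanin that binds the protease ADAM10, rose by 0.64 in KSL and had 0.16 in KL. Pkhd1l1, a large membrane protein, rose by 1.00 in KSL and had 0.46 in KL, from a dim signal of 4.09 to 4.31 on the WT arrays. Klrb1b, Pkhd1l1, Ms4a2 and Mecom were at or below the median of all values in every group. Clca3a1, of the chloride channel accessory family, rose by 0.87 in KSL and had 0.43 in KL. Grina, a membrane protein, Tgoln1, of the trans-Golgi network, Kpna6, a nuclear import receptor, Rpusd3, of the pseudouridine synthase family, and Gmeb1 had differences of 0.27 to 0.51 with effects under the fold minimum in both fractions. Gmeb1, a DNA-binding protein of glucocorticoid response, was the named gene whose WT and null arrays were apart in opposite directions, 0.08 in KSL and -0.19 in KL. Over the 24, the effect passed the call in both fractions for 4, in KSL alone for 10, in KL alone for 4 and in neither for 6.

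**Figure D4:**
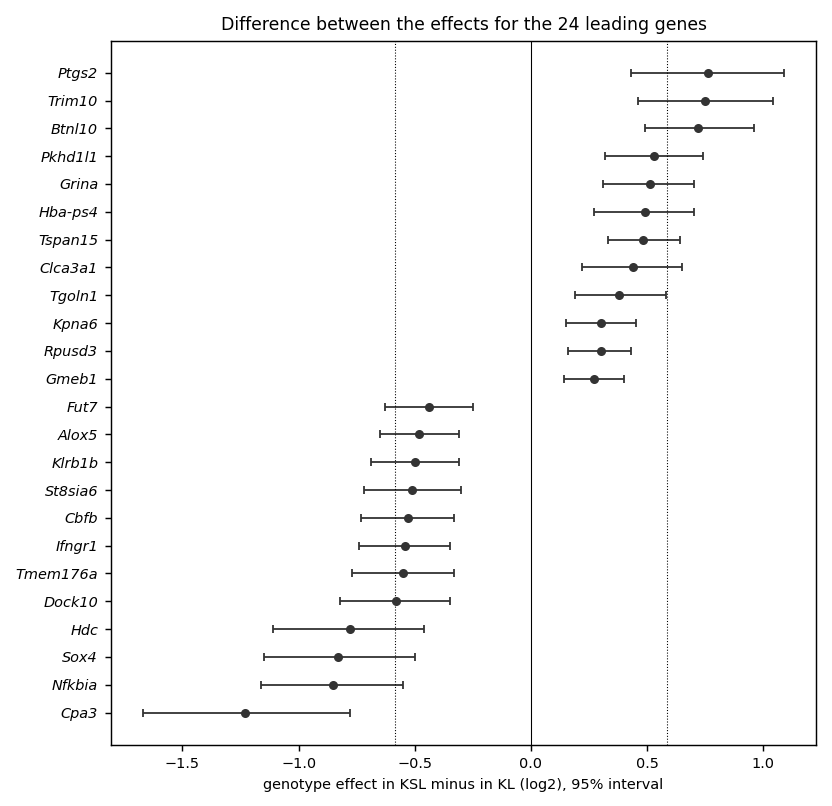
The difference between the effects, KSL minus KL on the log2 scale, for the 24 genes with the smallest p, with 95% intervals from the limma fit. All intervals leave out 0 because the genes were chosen by p, none has an adjusted p under 0.05, and the dotted lines mark a 1.5-fold difference.

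The remaining lists had medians of the difference between -0.12 and 0.05, apart from the plasmacytoid dendritic cell and sort markers. Of 24 lymphoid priming genes, 11 were lower in each fraction, with medians of -0.44 and -0.39. Of 33 interferon-induced genes, 10 were lower in KSL and 11 in KL, with medians of -0.50 and -0.41. Of 35 regulators of quiescence, 14 were lower and 2 higher in KSL, and 12 lower and 1 higher in KL, with medians of -0.44 and -0.42. Of 38 DNA replication genes, 4 were higher and 1 lower in KSL and 3 higher in KL, with medians of 0.08 and 0.18, and mitosis genes had 0.14 and 0.26, with 0 of 33 mitosis genes called in KSL and 1 in KL. The difference was above 0 for 8 of the 38 and 3 of the 33. The 26 measured genes around CaMKK2 and AMPK had medians of -0.06 and -0.04, and 3 of them were lower in each fraction. For these the 95% interval of the difference lay within a fold of 1.5 for 96.2% of members, beside 97.4% of the DNA replication genes and 47.4% of the mast cell, basophil and eosinophil genes. Markers of cells that the sort should leave out, those of B and plasma cells and of T and natural killer cells, had list medians between -0.05 and -0.02 in both fractions, with differences of -0.54 to 0.16 over all their members. Of 16 B and plasma cell genes, 2 were lower in each fraction, and of 20 T and natural killer cell genes, 3 were lower in KSL and 1 in KL. Over all probe sets the shares called lower were 3.69% in KSL and 2.72% in KL. The mean of the B and plasma cell list, relative to its average, was 0.01 to 0.26 in KSL labelled WT against -0.16 to -0.14 in KSL labelled null, and 0.1 to 0.17 against -0.18 to -0.12 in KL. Plasmacytoid dendritic cell markers had -0.24 and -0.17, and monocyte, macrophage and dendritic cell markers -0.05 and 0.05. Endothelial and stromal markers had -0.01 and -0.02. For the sort markers, the median was -0.34 in KSL and -0.18 in KL, and Kit fell, with effects of -0.75 and -0.64. The part of other cell types in the differences was not tested.

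**Figure D5:**
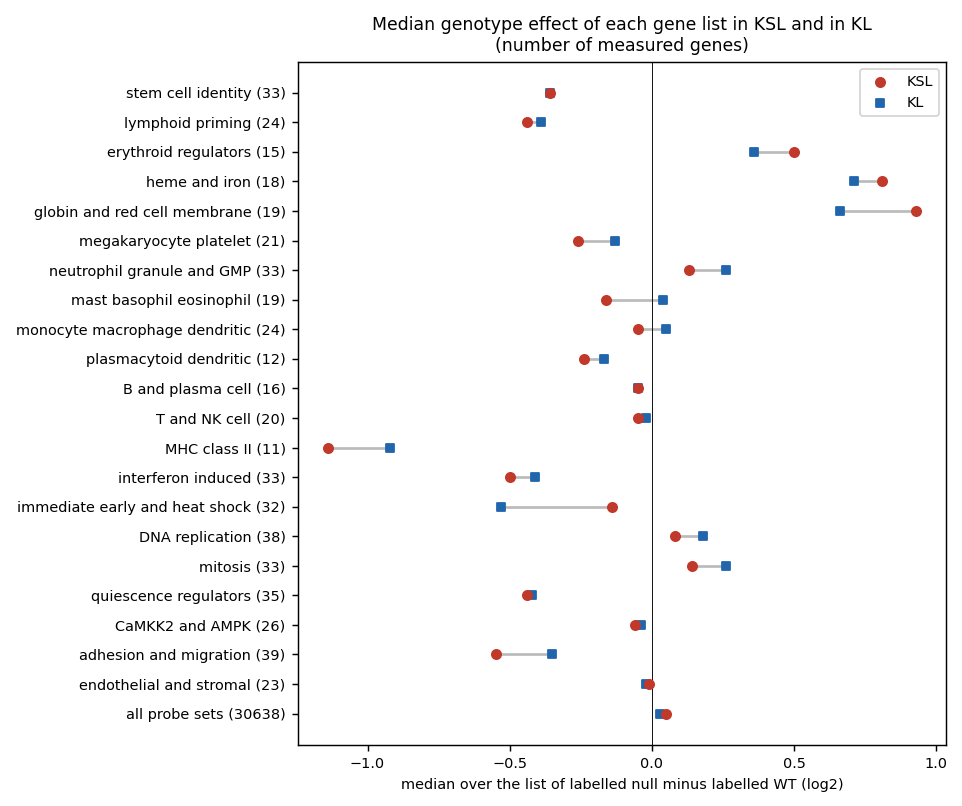
Median label effect, null minus WT on the log2 scale, of each gene list except the sort markers, in KSL (red circles) and KL (blue squares). The number of measured genes is in brackets, and all 30638 probe sets are at the bottom. The medians are -0.14 and -0.53 for the immediate-early and heat shock list and 0.93 and 0.66 for the globin and red cell membrane list, whose median difference per gene was 0.23 and 0.05.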

How the data were processed

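RNA from sorted KSL and KL cells was hybridised to whole-transcript mouse arrays, 1 array per replicate. The deposited values are log2 signals that the authors made by RMA in Partek 6.6, per the labels, with options not given in the sources used here. Array medians were 5.01 to 5.12. Probe sets were named from the platform annotation, and features that were controls, listed several genes (2176) or were not listed (39874) were not tested. All 16 arrays were fitted as 4 groups in limma 3.58.1 (R 4.3.3), two-sided, with Benjamini-Hochberg adjustment over 30638 probe sets and no block. Calls needed a 1.5-fold change and an adjusted p below 0.05. The fit was tested on simulated data. The p-values rest on the spread between arrays within groups, pooled over the 4 groups and moderated across probe sets by limma. A gene therefore has the same SE in both fractions, also where its groups spread unequally. The labels do not say how replicates share mice or days, so this spread may be partly technical. The number of arrays limits the precision.

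Named genes were the 12 in each direction with the smallest p of the difference, since none was called, the 8 in each direction of the shared effect with the largest smaller effect, and Camkk2, passing over predicted genes, small RNAs and receptor segments. A further 36 list members were chosen after their values were seen. The contrast and the lists were chosen with earlier results of these data known. A list used, for each gene, the probe set with the highest mean. Alternatives covered blocks, normalization, dim probe sets, 1 probe set per gene, the variance prior, the methods' t-test, the fold minimum and leaving out each array.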

Additional observations from a re-analysis of the deposited data

Results flagged for a closer look

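Outlying arrays were sought among 164 groups of 4, and 5 were found, where chance alone would mark about 1 group in 20. Pkhd1l1 read 4.31 in KSL WT replicate 2 against 4.15 to 4.17 on the other arrays of that group. Nfkbia read 9.22 in KL null replicate 3 against 8.91 to 8.92. Cpa3 read 8.96 in KSL WT replicate 2 against 9.26 to 9.30. St8sia6 read 5.74 in KSL WT replicate 3 against 5.41 to 5.46. C1qtnf12 read 10.82 in KSL null replicate 1 against 11.24 to 11.29. Gmeb1 stood out because every null array was above every WT array in KSL and below every WT array in KL, with a difference between the effects of 0.27 (95% interval 0.14 to 0.4, adjusted p = 0.312 from limma). That difference did not pass the test.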

How the results depend on the processing

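The count of called differences was 0 in each direction under the replicate block (smallest adjusted p 0.132), the replicate block within genotype label (0.0895), the dim filter (0.0863), 1 probe set per gene, the intensity trend with a robust prior (0.113), the methods' t-test (0.278), no fold minimum and a fold of at least 2. It was also 0 over all 65770 features other than controls (0.213) and with replicates 1 and 2 against 3 and 4 as a term (0.0954), both chosen after seeing the data. Quantile normalization gave 1 higher and 1 lower, with 7 under the adjusted p alone and a smallest adjusted p of 0.0102. Leaving out 1 array gave 0 to 3 higher and 0 to 3 lower, and KL null replicate 4 was the array whose removal gave 3 and 3; for the other 15 arrays the count stayed 0, and the cause was not tested. Without the fold minimum the counts were 3912 higher and 3791 lower in KSL, 2243 and 2694 in KL, 1402 and 1865 shared, and 3 called in opposite directions, the probe sets of Gm15323, Trav6n-6 and Gm8369. At a fold of at least 2 they were 132 and 358 in KSL, 130 and 281 in KL, and 44 and 87 shared. Without the interval condition the shared counts were 265 and 709. Leaving out each array moved the counts to 378 to 416 higher and 1052 to 1183 lower in KSL, 347 to 431 and 793 to 897 in KL, and 151 to 205 and 378 to 472 shared. The replicate block gave 406 and 1137 in KSL, 391 and 839 in KL, and 174 and 469 shared, within 1.5 times the main counts. Of 2228 refitted values of named genes, 2217 kept their sign and side of the threshold. Btnl10 (0.73) and Nfkbia (-0.82) passed after quantile normalization, and Ifngr1 and Hdc without KL null replicate 4. Camkk2, with a difference of -0.09, had the other sign on leaving out single arrays, with values of 0.03, 0.04 and 0.12 in 7 of the 16 cases and a range of -0.26 to 0.12. The replicate numbers did not pair the arrays closely. Of 24 pairs of arrays with the same number, 9 had correlated deviations (r over 0.1, range -0.083 to 0.241). The median r of pairs with different numbers was lower, at -0.0438, and 5 of 16 arrays correlated best with their own number.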
